A study of Mus musculus with 2 samples.

Results

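The 9 genes described here encode the integrin subunits through which leukocytes enter tissue and stay in it. They are *Itga4*, *Itgb1*, *Itgb7*, *Itgal*, *Itgb2*, *Itga1*, *Itgae*, *Itgam* and *Itgax*, taken by symbol from the 27998 genes of the count tables. CD45+ leukocytes were sorted from the brain of C57Bl/6 mice at p21, from twi mice (galc-/-, which lack galactosylceramidase, the enzyme deficient in globoid cell leukodystrophy) and from WT littermates (galc+/+), with no treatment in either group. The cells of several animals per genotype made up 1 library (10x Genomics, 3′ v2 chemistry), where every captured transcript is counted once by its unique molecular identifier (UMI). There was 1 library per genotype, no replicate error and no test. Every interval given is a 95% interval that covers counting error only.

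An integrin is a pair of 1 α and 1 β subunit that spans the membrane, binds a ligand outside the cell and connects to the actin cytoskeleton inside it. *Itga4* pairs with *Itgb1* to give the receptor for VCAM-1 on inflamed endothelium, and with *Itgb7* to give the receptor for MAdCAM-1 of gut vessels. *Itgal* and *Itgb2* form LFA-1, which binds ICAM-1 during firm adhesion and at the contact between a T cell and its target. *Itga1* with *Itgb1* binds collagen and *Itgae* with *Itgb7* binds E-cadherin, and both α subunits are widely used as markers of tissue-resident T cells. *Itgam* and *Itgax* pair with *Itgb2* to give the complement receptors Mac-1 and CD11c/CD18 of myeloid cells.

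All 9 genes are protein coding and lie on 7 chromosomes of the mouse build GRCm38 (mm10). *Itgal* (chr7:127296260-127335138), *Itgam* (chr7:128062640-128118491) and *Itgax* (chr7:128129547-128150657) follow one another on the plus strand of chromosome 7. *Itga4* lies at chr2:79255426-79333123, *Itgb1* at chr8:128685654-128733200, *Itgb2* at chr10:77530252-77565708 and *Itgae* at chr11:73090583-73147446, all on the plus strand, and *Itga1* at chr13:114953096-115101964 and *Itgb7* at chr15:102215995-102231944 on the minus strand. *Itgam* has 2 rows in the tables, one of them (21 WT and 15 twi UMIs) for a gene model that overlaps the main one (322 and 177 UMIs), and the rows were summed.

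The 250 bases before the transcription start are shown for *Itga4* and *Itgam*, because these α subunits had opposite patterns over the neutrophil and lymphocyte classes described below. Both are plus-strand sequences from RefSeq on GRCm38.p6, at chr2:79255176-79255425 and chr7:128062390-128062639. Capitals mark 2 short motifs searched on both strands, GAGGAA (the core bound by PU.1, a myeloid and B cell factor) and TGTGGT (the core bound by RUNX factors).
Itga4: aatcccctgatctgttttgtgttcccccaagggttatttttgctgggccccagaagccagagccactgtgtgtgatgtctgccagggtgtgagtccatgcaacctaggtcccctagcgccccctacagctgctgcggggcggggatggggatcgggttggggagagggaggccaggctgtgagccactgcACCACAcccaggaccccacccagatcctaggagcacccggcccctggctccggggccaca
Itgam: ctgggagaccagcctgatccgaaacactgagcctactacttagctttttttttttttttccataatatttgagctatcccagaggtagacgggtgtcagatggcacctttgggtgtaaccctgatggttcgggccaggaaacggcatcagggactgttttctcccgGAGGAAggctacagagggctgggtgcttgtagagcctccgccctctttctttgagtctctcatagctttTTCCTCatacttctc
The *Itga4* window holds TGTGGT on the opposite strand (read as ACCACA), 60 to 55 bases before the start, and the *Itgam* window holds GAGGAA on the same strand 84 to 79 bases and on the opposite strand (TTCCTC) 15 to 10 bases before it. Over 32851 mouse promoters of the same length, 23.3% hold GAGGAA and 14.0% hold TGTGGT, so such a match is common and describes the letters only. RefSeq promoters were matched for 6 of the 9 genes. Among these, the window of *Itgb1*, at 10.8 CPM in WT neutrophils, also holds GAGGAA. Those of *Itga1*, *Itgax* and *Itgb7* hold neither motif.

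The WT library held 1271 cells (3741477 UMIs) and the twi library 1207 cells (4791200 UMIs) with at most 15% mitochondrial UMIs, with median depths of 2222 and 3182 UMIs. No barcode was shared, and *Ptprc*, which encodes CD45, had a UMI in 61.8% of WT and 79.2% of twi cells. Cells were put in 8 classes by UMIs of marker genes, none of them an integrin, which placed 1066 WT and 848 twi cells. The classes were CD8 T (95 WT and 369 twi cells), CD4 T (47 and 69), γδ T (10 and 49), NK (77 and 67), B (560 and 167), neutrophil (219 and 60), monocyte (39 and 49) and microglia (19 and 18). The γδ T class rested on UMIs of *Cd163l1* and *5830411N06Rik* alone, so γδ T cells without a UMI of these genes lie outside it. A further 120 WT and 215 twi cells had *Cd3* transcripts but no UMI of *Cd4*, *Cd8* or these γδ markers. *Galc* had 4 WT and 8 twi UMIs, and a 3′ count does not check the genotype. Of the twi cells 45.4% carried *Xist* and no Y transcript, against 0% of WT cells, so the twi pool held animals of both sexes, and genotype and sex cannot be told apart over all cells. Cells with a Y transcript and no *Xist* (487 WT and 207 twi) are therefore given as a comparison within males.

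The 9 genes had their highest levels in different cell classes (the plot of levels by class). Levels are given as CPM, a gene's UMIs over all UMIs of the class at a fixed scale. *Itgb7* was highest in the γδ T class, at 814 CPM (490 to 1271) in WT and 748 CPM (626 to 887) in twi, with a UMI in 9 of 10 and 42 of 49 cells. In WT the γδ T level did not differ from the next class, CD4 T cells at 497 CPM, beyond counting error (ratio 1.64, interval 0.933 to 2.74), and in twi it did (ratio to 499 CPM 1.50, interval 1.16 to 1.94). B cells and neutrophils were at the low end, with 34 *Itgb7* UMIs in 560 and 13 in 219 WT cells and 54.1 and 41.3 CPM in twi.

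*Itgb1*, the common β chain of the receptors for matrix and VCAM-1, was highest in NK cells, at 537 CPM (445 to 643) in WT and 643 CPM (544 to 756) in twi. The next class was monocytes in WT (192 CPM, NK over monocyte 2.80, interval 2.01 to 3.93) and CD4 T cells in twi (395 CPM, ratio 1.63, interval 1.25 to 2.14). NK cells also led *Itgax*, with 145 CPM in WT and 109 CPM in twi, whereas CD4 T cells had 0 UMIs of it in both libraries. In WT the gap to the next class for *Itgax*, microglia, rested on 1 UMI in that class (ratio 6.73, interval 1.12 to 274), and in twi it was within counting error (ratio 2.22, interval 0.836 to 7.44).

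*Itgam* had the myeloid pattern. Neutrophils had 349 CPM (305 to 398) in WT and 351 CPM (273 to 445) in twi, and microglia 279 CPM (149 to 478) and 344 CPM (240 to 479). The 2 classes did not differ beyond counting error in either library. NK cells were lower, at 126 and 70.0 CPM, and CD8 T cells had 1 UMI in WT and 3 in twi. *Itgb2*, its partner, was spread more evenly. NK cells (533 CPM in WT, 473 CPM in twi) and neutrophils (499 and 423 CPM) were at the top, B cells at the bottom (55.7 and 68.2 CPM), and the T cell classes between.

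*Itga4* was low in neutrophils, with 8 UMIs in 219 WT cells (12.3 CPM) and 1 UMI in 60 twi cells (5.16 CPM). In WT, NK cells (262 CPM), CD8 T cells (247 CPM) and monocytes (242 CPM) were at the top and did not differ from one another beyond counting error. In twi, CD4 T cells (274 CPM) and monocytes (250 CPM) led, and CD8 T cells (183 CPM) were below monocytes (monocyte over CD8 T 1.37, interval 1.04 to 1.78). B cells had 82.0 CPM in WT and 108 CPM in twi.

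*Itgal* was highest in WT in NK cells, at 275 CPM, above monocytes at 164 CPM (ratio 1.68, interval 1.13 to 2.52). In twi the levels of γδ T cells (208 CPM), monocytes (205 CPM), NK cells (193 CPM), CD8 T cells (183 CPM) and CD4 T cells (152 CPM) followed one another within counting error. B cells were low in both, at 16.4 and 30.6 CPM.

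The residence subunits were rare. *Itgae* had 30 UMIs over all WT cells and 105 over all twi cells, and *Itga1* had 14 and 73. Neither had a UMI in 560 WT or 167 twi B cells, where a floor of 3 counts is 0.536% and 1.80% of cells and the exact upper limits are 0.657% and 2.18%. *Itgae* was in the γδ T (85.7 CPM from 2 UMIs in WT, 56.2 CPM in twi), CD8 T (29.5 and 39.0 CPM) and CD4 T (27.2 and 34.7 CPM) classes, and in twi NK cells (30.6 CPM from 7 UMIs). The CD4 T values came from 4 UMIs in 1 WT cell and 8 UMIs in 4 twi cells. *Itga1* in twi was in CD8 T (24.4 CPM from 40 UMIs), γδ T (22.5 CPM from 4 UMIs) and NK cells (21.9 CPM from 5 UMIs). Outside the classes, the *Cd3* cells without coreceptor held 17 of its twi UMIs (23.7 CPM). In WT 6 of its 14 UMIs were in monocytes, 4 of them in cells with transcripts of granule proteases of myeloid progenitors.

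**Figure D1:**
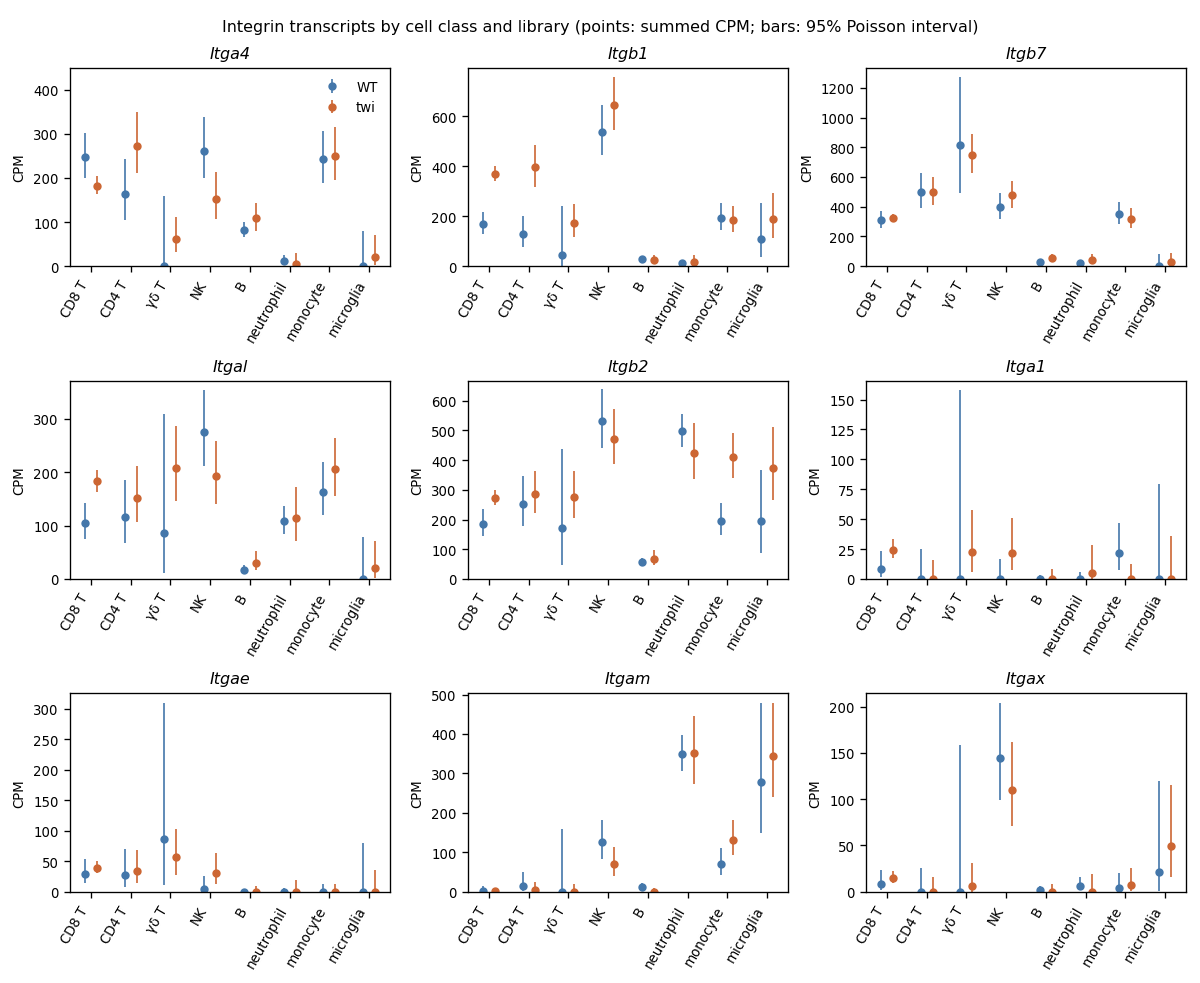
Summed level of each integrin gene in the 8 cell classes, in CPM on linear axes that differ between panels, with WT in blue, twi in orange and 95% Poisson intervals as bars. *Itgam* stands at about 350 CPM in neutrophils of both libraries, *Itgb7* is highest in γδ T cells, and *Itgb1* in CD8 T and CD4 T cells is higher in twi than in WT.

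In CD8 T cells, the population that the study followed in twi brain, *Itgb1* and both LFA-1 subunits were higher in twi and *Itga4* was lower, while *Itgb7* differed by less than counting error (the plot of ratios in CD8 T cells). The classes held 372965 UMIs in WT and 1641283 in twi, with median depths of 3351 and 3810 UMIs per cell. Of the 9 genes, 8 had at least 20 UMIs over both libraries. Of these 8, *Itgb1* and *Itga1* were at least 2-fold higher in twi, and 0 were at least 2-fold lower. The same fold was reached by 11.4% of the 7088 genes with that many UMIs in this class in the higher and by 2.79% in the lower direction. The 8 genes had a median log2 ratio, twi over WT, of 0.64, beside 0.08 over all these genes.

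*Itgb1* had 63 UMIs in WT CD8 T cells (169 CPM) and 605 in twi (369 CPM), a ratio of 2.18 (interval 1.68 to 2.88). A UMI was seen in 23.2% of WT and 54.7% of twi cells, and in 11.7% and 27.5% when each cell was thinned to 1000 UMIs. Cells with 3 or more UMIs made up 7.37% of WT and 20.6% of twi cells. In B cells, given as a background, the shares were 5.89% and 6.59% at median depths of 1998.5 and 2210 UMIs. The WT level rested in part on 1 cell of 24127 UMIs that held 23 of the 63 UMIs, and without the cell with most *Itgb1* in each library the ratio was 3.09 (interval 2.24 to 4.36).

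The *Itgb1* ratio was not above 1 beyond counting error in cells with a captured Y transcript. Among CD8 T cells with a Y transcript and no *Xist* (42 WT and 53 twi cells), twi over WT was 0.799 (interval 0.511 to 1.24), or 1.17 (interval 0.671 to 2.07) without the cell with most *Itgb1* in each library. Within the twi library, the 203 CD8 T cells with *Xist* and no Y transcript had 442 CPM of *Itgb1*, against 191 CPM in the 53 cells with a Y transcript and no *Xist*, a ratio of 2.31 (interval 1.67 to 3.28). The 42 WT cells are those with a captured Y transcript among 95 WT CD8 T cells, of which 0 carried *Xist* without one. All 95 together had 169 CPM of *Itgb1*. Cells of the 2 sexes also come from different animals of the pool, and the part of sex or of single animals in the *Itgb1* ratio was not tested.

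*Itgal*, the α chain of LFA-1, went from 39 UMIs (105 CPM) in WT CD8 T cells to 300 (183 CPM) in twi, a ratio of 1.75 (interval 1.25 to 2.51), with a UMI in 32.6% and 47.7% of cells (12.8% and 20.4% when thinned). *Itgb2*, its β chain, went from 69 UMIs (185 CPM) to 447 (272 CPM), a ratio of 1.47 (interval 1.14 to 1.93), in 37.9% and 61.2% of cells (9.57% and 24.5% when thinned). For both subunits the cells with a Y transcript gave the same direction, with ratios of 2.82 (interval 1.57 to 5.31) and 1.72 (interval 1.17 to 2.57). Both LFA-1 subunits were thus higher in twi in all CD8 T cells and in those of male animals. In the twi library itself, both were lower in the *Xist* cells than in the Y cells (ratios 0.673, interval 0.483 to 0.951, and 0.739, interval 0.571 to 0.965).

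*Itga4* had 92 UMIs (247 CPM) in WT and 300 (183 CPM) in twi, a ratio of 0.741 (interval 0.585 to 0.946). Cells with a UMI were about as frequent, at 44.2% in WT and 45.8% in twi (20.2% and 16.3% when thinned). The lower sum in twi thus went with a like frequency of positive cells. Without the cell with most *Itga4* in each library the ratio was 0.803 (interval 0.624 to 1.04), and among cells of 2000 to 6000 UMIs it was 0.941. *Itgb7*, the other partner of *Itga4*, had 116 UMIs (311 CPM) in WT and 529 (322 CPM) in twi, a ratio of 1.04 (interval 0.846 to 1.28), in 62.1% and 63.7% of cells.

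The remaining subunits had few UMIs in WT CD8 T cells. *Itga1* had 3 UMIs in WT and 40 in twi (8.04 and 24.4 CPM, ratio 3.03, interval 0.965 to 15.3). *Itgae* had 11 and 64 (29.5 and 39.0 CPM, ratio 1.32, interval 0.692 to 2.78), and *Itgax* had 3 and 25 (8.04 and 15.2 CPM, ratio 1.89, interval 0.578 to 9.80). All 3 intervals cross 1. Without the cell with most *Itga1* in each library that ratio was 4.28 (interval 1.11 to 36.6). In WT 3 cells tied at 1 UMI each, so this step removed 1 of the 3 WT UMIs and had to raise the ratio.

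Markers of other cell types in the CD8 T class differed between the libraries in part. All 10 neutrophil markers had a UMI in it in both libraries and together came to 1351 CPM in WT and 422 CPM in twi. The 8 B cell markers came to 147 and 52.4 CPM (6 of 8 detected in WT, 8 in twi), the 6 NK markers to 193 and 191 CPM and the 12 microglia markers to 121 and 99.9 CPM. The 5 monocyte markers were higher in twi, at 142 and 183 CPM (3 of 5 detected in WT, 5 in twi). Of them *Ccr2* gave 40.2 and 90.8 CPM. Of the 4 endothelial markers *Cldn5* and *Flt1* had no UMI in either library, and *Ly6c1*, which CD8 T cells also express, gave 632 of the 659 CPM in twi. The part of these transcripts in the integrin ratios was not tested.

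**Figure D2:**
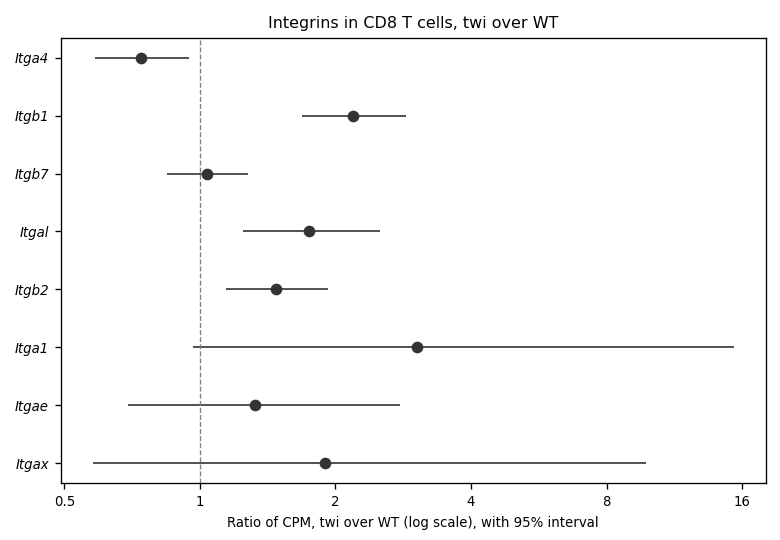
Ratio of summed CPM in CD8 T cells, twi over WT, on a log axis, for the 8 integrin genes with at least 20 UMIs, with exact 95% intervals as lines and a dashed line at equal levels. The intervals of *Itgb1*, *Itgal* and *Itgb2* lie above 1, that of *Itga4* below it, and those of the other 4 genes cross it.

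The CD8 T class held different mixtures of cells in the 2 libraries, and *Itgb1*, *Itgal*, *Itgb2* and *Itga4* differed between these states within twi, while *Itgb7* and *Itgae* did not beyond counting error. CCR7 guides T cells into lymph nodes, and CXCR6 marks effector and tissue T cells. Cells with a *Cxcr6* UMI and no *Ccr7* made up 6.32% of WT CD8 T cells (6 cells) and 56.9% of twi CD8 T cells (210 cells), and cells with *Ccr7* and no *Cxcr6* made up 46.3% (44 cells) and 15.7% (58 cells). The split by these 2 genes was chosen after the values were seen. The share of these states thus differed between the libraries, and its part in each integrin ratio was not tested.

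Within the twi library, *Itgb1* was 12-fold higher in the *Cxcr6* cells than in the *Ccr7* cells (499 against 41.6 CPM, interval 6.47 to 25.2), with a UMI in 70.5% and 13.8% of them. *Itgal* was 3.52-fold higher (220 against 62.4 CPM, interval 2.09 to 6.41), *Itgb2* 1.94-fold (307 against 158 CPM, interval 1.38 to 2.80) and *Itga4* 1.65-fold (206 against 125 CPM, interval 1.12 to 2.51). *Itgb7* differed by less than counting error, at 323 and 362 CPM (ratio 0.893, interval 0.701 to 1.15). The LFA-1 subunits, *Itga4* and *Itgb1* were thus higher in the *Cxcr6* cells, whose median depth (3910 UMIs) was close to that of the *Ccr7* cells (3899 UMIs).

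Among the rarer subunits, *Itga1* had 33 UMIs in the *Cxcr6* and 1 in the *Ccr7* cells of twi (ratio 8.46, interval 1.42 to 344). *Itgax* had 23 and 0 UMIs, at least 1.97-fold higher in the *Cxcr6* cells when set against a floor of 3 counts over the group, with an exact lower limit of 1.47. *Itgae* did not follow the split, with 41.6 against 45.7 CPM (ratio 0.909, interval 0.457 to 1.97). For *Itgb1* and *Itgal* the split had the same direction in twi cells of each sex. In cells with *Xist* it was 7.69 for *Itgb1* (interval 3.86 to 17.9) and 2.68 for *Itgal* (interval 1.26 to 6.83), and in cells with a Y transcript *Itgal* had a ratio of 4.67 (interval 1.68 to 18.03) and *Itgb1* had 31 UMIs in 28 *Cxcr6* cells and 0 in 13 *Ccr7* cells.

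Set against WT within a state, most ratios had intervals that include 1, from few WT UMIs. The exception in this split was *Itga4* in the *Cxcr6* cells, at 0.526 (interval 0.316 to 0.939). It rested on 16 WT UMIs, 13 of them in the cell of 24127 UMIs. In the *Ccr7* cells, twi over WT was 0.505 for *Itgb1* (interval 0.201 to 1.22), 0.663 for *Itgal* (interval 0.305 to 1.43), 1.03 for *Itgb2* (interval 0.611 to 1.77) and 0.757 for *Itga4* (interval 0.437 to 1.32). The WT *Cxcr6* cells numbered 6, and 1 of them gave 23 of their 24 *Itgb1* UMIs (twi over WT 0.850, interval 0.564 to 1.34). A wider split, likewise chosen after the values were seen, set all CD8 T cells with a *Cxcr6* UMI (18 WT and 243 twi) apart from those without (77 and 126). The ratio of twi to WT for *Itgb1* was 1.77 (interval 1.18 to 2.75) with and 1.18 (interval 0.797 to 1.79) without *Cxcr6*, beside 2.18 over all CD8 T cells. The value with *Cxcr6* rested on 25 WT UMIs, 23 of them from that same cell, and without the cell with most *Itgb1* in each library it was 15.8 (interval 4.35 to 131), from 2 WT UMIs. *Itga4* had ratios of 0.574 (interval 0.395 to 0.860) with and 0.760 (interval 0.538 to 1.08) without *Cxcr6*, and of 0.720 (interval 0.450 to 1.22) with *Cxcr6* when its top cells were left out, although *Itga4* was higher in the *Cxcr6* cells than in the *Ccr7* cells within twi.

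**Figure D3:**
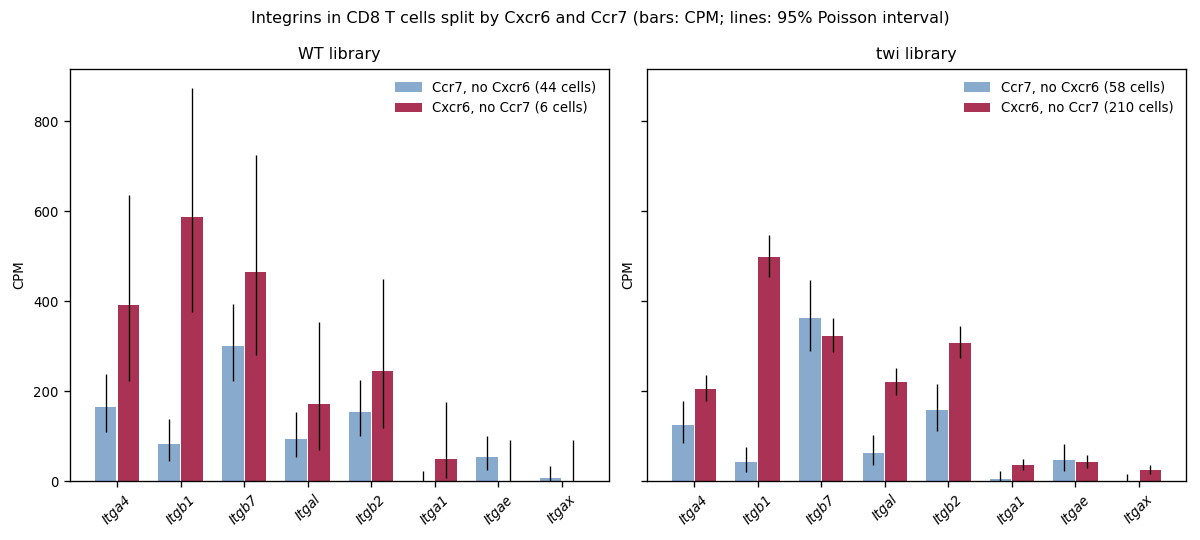
CPM of 8 integrin genes in CD8 T cells of the WT library (left) and the twi library (right), on linear axes from 0, in cells with *Ccr7* and no *Cxcr6* (blue) and in cells with *Cxcr6* and no *Ccr7* (red), with 95% Poisson intervals as lines. In twi *Itgb1* is 499 CPM in the *Cxcr6* cells and 41.6 CPM in the others while *Itgb7* is 323 and 362 CPM, and the WT *Cxcr6* bars rest on 6 cells.

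*Itga1* and *Itgae* lay in partly overlapping sets of twi CD8 T cells, and the 2 sets were not compared with each other by a test. *Itgae* was seen in 47 and *Itga1* in 36 of 369 cells, 8 cells carried both and 294 neither, and in WT 9 cells carried *Itgae*, 3 carried *Itga1* and 0 both. The *Itga1* cells of twi had more *Itgae* than the other CD8 T cells (74.5 against 34.8 CPM, ratio 2.14, interval 1.07 to 3.997). The *Itga1* cells of twi had 1.98-fold more *Cxcr6* than the CD8 T cells without *Itga1* (837 against 423 CPM, interval 1.64 to 2.37) and less *Ccr7* (ratio 0.326, interval 0.139 to 0.655). The *Itgae* cells of twi had more *Cxcr6* UMIs (ratio 1.51, interval 1.24 to 1.82) and also more *Ccr7* UMIs (ratio 1.92, interval 1.35 to 2.67). The shares of cells with a UMI were closer. *Cxcr6* was in 68.1% of the cells with and 65.5% of those without *Itgae*, and *Ccr7* in 29.8% and 23.9%. Median depths were similar, at 3929.5 UMIs in the *Itga1* and 3859 in the *Itgae* cells. *Zfp683*, which encodes the residence factor Hobit, had 1 UMI in the 47 twi *Itgae* cells and 9 in the other 322 (ratio 0.778, interval 0.0178 to 5.61), 3 in the 36 *Itga1* cells and 7 in the other 333 (ratio 3.60, interval 0.601 to 15.8), and 0 in WT CD8 T cells.

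Transcripts for the ligand of the *Itgae* and *Itgb7* pair were found in twi CD8 T cells, and the protein was not measured. *Cdh1*, which encodes E-cadherin, had 59 UMIs in 46 of 369 twi CD8 T cells (12.5% of cells, interval 9.27 to 16.3%, or 3.86% when thinned) and 0 in 95 WT CD8 T cells, where a floor of 3 counts is 3.16% of cells and the exact upper limit is 3.81%. At 35.9 CPM in twi it was at least 4.47-fold higher when set against the WT floor of 3 counts, and the exact lower limit of the ratio was 3.52. Among cells with a Y transcript it was in 4 of 53 twi (7.55%, interval 2.09 to 18.2%) and 0 of 42 WT CD8 T cells (floor of 3 counts 7.14%, exact upper limit 8.41%), so the shares within males were not separated. In twi B cells it was in 0 of 167 cells (exact upper limit 2.18%), at a lower median depth than CD8 T cells (2210 against 3810 UMIs). The part of free RNA in the CD8 T count was not tested.

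*Cdh1* followed the state of the twi CD8 T cells. It was in 18.1% of the *Cxcr6* cells (38 of 210, interval 13.1 to 24.0%) and in 0 of 58 *Ccr7* cells (floor of 3 counts 5.17%, exact upper limit 6.16%). It was in 21.3% of the cells with *Itgae* (10 of 47, interval 10.7 to 35.7%) and in 11.2% of those without (36 of 322, interval 7.95 to 15.1%), and these intervals overlap. Outside the CD8 T class, twi NK cells held it in 3 of 67 cells and the *Cd3* cells without coreceptor in 13 of 215, and CD4 T, γδ T, B, neutrophil, monocyte and microglia classes had no UMI in twi. Over all twi cells *Cdh1* was in 79 of 1207 (98 UMIs). The positive cells not counted above lay outside the 8 classes and the *Cd3* group, so *Cdh1* was not confined to CD8 T cells.

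Partner subunits were counted in the same cell. *Itgal* with *Itgb2* was seen in 16.8% of WT and 33.3% of twi CD8 T cells (1.06% and 4.41% when thinned), and *Itga4* with *Itgb1* in 10.5% and 27.6% (5.32% and 4.96% when thinned). At equal depth the LFA-1 pair kept its direction, with intervals that overlap (0.0269 to 5.79% and 2.54 to 7.06%), and the *Itga4* and *Itgb1* pair had shares within counting error of each other. *Itga4* with *Itgb7* was in 27.4% and 29.8% of CD8 T cells (7.45% and 5.23% when thinned). *Itgam* with *Itgb2* was in 42.9% of WT and 36.7% of twi neutrophils (16.4% and 6.78% when thinned). In NK cells *Itgax* with *Itgb2* was in 23.4% and 19.4% (5.33% and 3.03% when thinned). In twi CD8 T cells 69.9% of the cells with *Itgal* also carried *Itgb2*, against 53.4% of those without *Itgal*, but thinned to equal depth the shares were 21.6% and 25.3%, so the higher share was not seen there.

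Genes that activate integrins or tie them to actin stayed under 2-fold in CD8 T cells. In the other lists 4 genes of homing and residence and the ligands *Cdh1* and *Icam2* reached it. Over all 7088 genes with at least 20 UMIs in this class, 11.4% were at least 2-fold higher and 2.79% lower. The difference between the lists was not tested. Of 25 genes of integrin activation and cytoskeletal linkage, 22 had at least 20 UMIs in CD8 T cells and 0 reached 2-fold in either direction (median log2 ratio 0.03). *Fermt3*, the kindlin-3 that activates β chains, was 1.58 times as high in twi (interval 1.07 to 2.42), and *Rasgrp2*, the exchange factor for Rap1, was 0.553 times as high (interval 0.433 to 0.709). *Cytip*, a brake on LFA-1 adhesion, had a ratio of 0.688 (interval 0.528 to 0.905), and talin (*Tln1*) a ratio of 1.15 (interval 0.838 to 1.60). The most abundant genes of this list, the adaptors *Skap1* and *Fyb* and the small GTPases *Rap1b* and *Rap1a*, had ratios of 1.07, 0.954, 1.22 and 1.06 with intervals that include 1.

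Of 18 other integrin subunits only *Itga6* (ratio 0.947) and *Itgav* (ratio 1.14) had 20 or more UMIs in CD8 T cells, and 0 reached 2-fold. Of 11 integrin ligands 3 had 20 or more UMIs, *Cdh1*, *Icam1* (ratio 1.48, interval 0.911 to 2.55) and *Icam2* (ratio 0.488, interval 0.321 to 0.756). Of 14 other genes of entry and residence 13 had 20 or more UMIs, with 2 at least 2-fold higher and 2 at least 2-fold lower. The chemokine receptors *Cxcr6* (ratio 5.45, interval 3.83 to 8.02) and *Cxcr3* (ratio 2.14, interval 1.59 to 2.92) were higher in twi. *Ccr7* (0.395, interval 0.315 to 0.498) and *Klf2*, the factor that keeps *S1pr1* on (0.472, interval 0.429 to 0.520), were lower. *Selplg*, which encodes PSGL-1, had a ratio of 1.08 (interval 0.942 to 1.24) and *Cd69* of 0.944 (interval 0.765 to 1.17).

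In CD4 T cells *Itgb1* was also higher in twi. It went from 19 UMIs (129 CPM) in WT to 91 (395 CPM) in twi, a ratio of 3.05 (interval 1.85 to 5.30). The ratio was 5.41 (interval 2.23 to 15.01) among cells with a Y transcript and no *Xist*, of which twi had 13, and 2.52 (interval 0.990 to 7.59) when thinned, from 6 and 22 UMIs. *Itga4* was also higher there (163 and 274 CPM, ratio 1.67, interval 1.03 to 2.80, or 1.09 when thinned), and *Itgb7* had equal levels (ratio 1.00, interval 0.743 to 1.37). Of the 5 integrin genes with 20 UMIs in CD4 T cells, 1 was at least 2-fold higher, beside 6.16% of all 2484 genes with that many.

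In NK cells *Itga4* was lower in twi, with 58 UMIs (262 CPM) in WT and 35 (153 CPM) in twi (ratio 0.585, interval 0.373 to 0.905). When thinned, that ratio was 0.473 (interval 0.202 to 1.03). The other 6 integrin genes with 20 UMIs in NK cells had intervals that include 1. *Itgb1* had a ratio of 1.20 (interval 0.934 to 1.54) and *Itgal* of 0.699 (interval 0.463 to 1.05). In neutrophils *Itgam* had a ratio of 1.00 (interval 0.755 to 1.32). That ratio was 0.657 (interval 0.358 to 1.14) when thinned and 3.27 (interval 1.58 to 6.26) among cells with a Y transcript, of which twi had 5. In the same class *Itgb2* differed by less than counting error (ratio 0.849, interval 0.658 to 1.08).

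In monocytes *Itgb2* was 2.10-fold higher in twi (196 against 410 CPM, interval 1.51 to 2.94), the 1 of 6 integrin genes with 20 UMIs there to reach 2-fold, beside 4.44% of all 3715 such genes. The ratio was 1.66 (interval 1.15 to 2.42) without the 8 WT and 3 twi cells that carried at least 3 UMIs of the progenitor granule genes *Mpo*, *Elane*, *Prtn3* and *Ctsg*, and 1.17 (interval 0.574 to 2.26) among cells with a Y transcript. When thinned, the *Itgb2* ratio was 1.51 (interval 0.858 to 2.74). *Itgam* had a ratio of 1.86 (interval 1.05 to 3.37), and of 1.14 (interval 0.632 to 2.10) without the progenitor cells. Of the *Itgb7* UMIs of the class, these cells gave 46 of 99 in WT and 21 of 91 in twi. In B cells *Itgb7* was higher in twi (27.9 against 54.1 CPM, ratio 1.94, interval 1.09 to 3.39), at levels near those of neutrophils. When thinned, that ratio was 1.80 (interval 0.772 to 3.97). The B class also held more T cell transcripts in twi, with 0.0393 and 0.120 *Cd3* and 0.00536 and 0.132 *Cd8* UMIs per cell in WT and twi. Their part in the *Itgb7* ratio was not tested. *Itgam* had 16 UMIs in WT and 0 in twi B cells, while neutrophils made up 17.2% of WT and 4.97% of twi cells, and their part in this count was not tested.

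The *Cd3* cells without coreceptor, which may hold T cells of any kind with no *Cd4* or *Cd8* UMI captured, had a ratio for *Itgb1* of 1.15 (interval 0.861 to 1.56) and for *Itgb2* of 0.776 (interval 0.613 to 0.985). In γδ T cells, of which WT held 10, *Itgb1* (1 UMI in WT and 31 in twi, ratio 4.07, interval 0.678 to 166) and *Itgal* (2 and 37, ratio 2.43, interval 0.627 to 20.8) were the 2 of 4 integrin genes with 20 UMIs at a ratio over 2, beside 13.9% of all 1492 such genes. There no integrin gene with 20 UMIs in both libraries together had an interval that excludes 1.

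Over the sort as a whole, CD8 T cells held a larger share of the UMIs of each gene in twi than in WT (the plot of UMIs by class). Of the UMIs of all genes, they held 372965 of 3741477 in WT and 1641283 of 4791200 in twi. Their share was thus larger in twi over all genes together as well. CD8 T cells held 14.5% of the *Itgb1* UMIs in WT and 45.7% in twi, 11.5% and 39.5% of those of *Itgal*, and 36.7% and 61.0% of those of *Itgae*. Neutrophils held 66.2% and 35.4% of the *Itgam* UMIs. Summed over all CD45+ cells, twi over WT was 2.38 for *Itgb1*, 1.75 for *Itgal*, 1.70 for *Itgb7* and 0.437 for *Itgam*. In a sum over cells, more cells of a type and more RNA per cell cannot be told apart. Within neutrophils the *Itgam* ratio was 1.00, and within CD8 T cells that of *Itgb7* was 1.04.

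**Figure D4:**
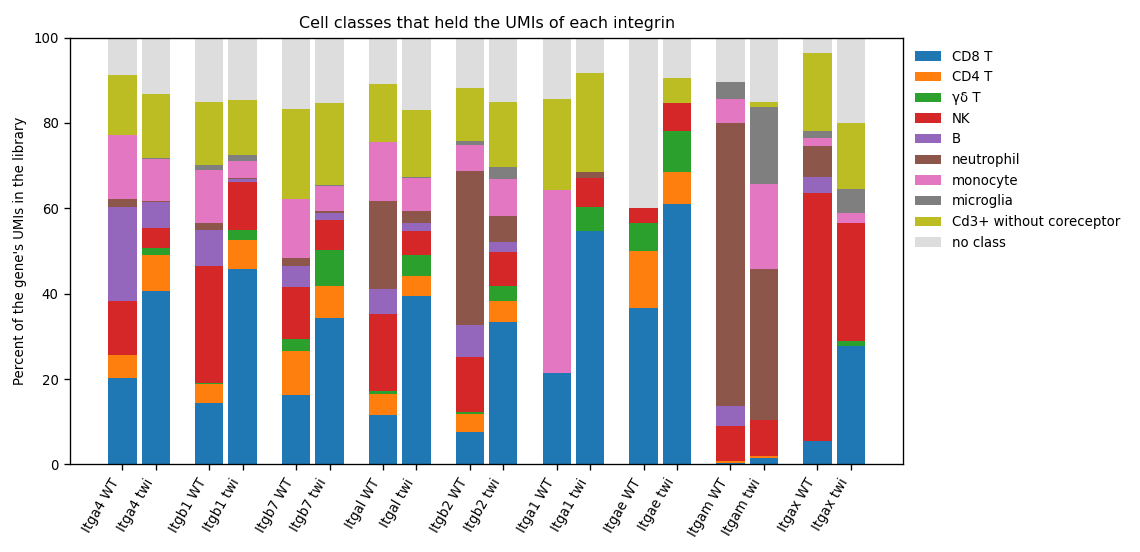
Percent of each gene's UMIs, from 0 to 100, that lay in each cell class, with WT and twi bars side by side for the 9 integrin genes. The CD8 T part is larger in twi for every gene, as it is over the UMIs of all genes, and neutrophils hold most *Itgam* UMIs in WT.

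The genes whose levels followed each integrin most closely over 16 sums (8 classes in 2 libraries, each of at least 20000 UMIs) were taken by Pearson's r of log2(CPM + 10), among 7136 genes. The sums share their libraries, so r is a description. For *Itgae* they were *Lysmd2* (r = 0.98), *Grap2* (0.96) and *Lat* (0.94), and the last 2 encode adaptors of T cell receptor signalling. For *Itgam* they were *Fcgr3*, an Fc receptor of myeloid and NK cells (0.95), *Cd9* (0.92) and *Plek* (0.90), and for *Itgb2* they were *Tmsb4x* (0.89), *Myo1f* (0.85) and *Lcp1* (0.78), which encode actin-binding proteins and a myosin. *Itgb7* followed *Gpr132* (0.94), *Lgals1* (0.93) and *Traf1* (0.93), *Itgal* followed *Rbms1* (0.93), and *Itgb1* followed *Prkch* (0.89). *Itga4* followed *Lztr1* (0.92), *Itgax* followed *Arl4d* (0.90), and *Itga1*, with few UMIs, followed *Serhl* (0.75) and *Cd160* (0.68).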

How the data were processed

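CD45+ cells of pooled WT and pooled twi brains at p21 were measured in 1 library each. The deposited values are raw UMI counts of each gene in each barcode, from reads that the authors aligned with STAR. The submitters' processing notes name Cell Ranger 2.1.1 and mm10. The labels give 1 h of digestion with collagenase and dispase. Gene positions come from the GENCODE annotation of GRCm38.

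Barcodes with over 15% mt- UMIs (7 WT, 13 twi) were removed. CD8 T cells needed at least 1 UMI of *Cd3d*, *Cd3e* or *Cd3g* and of *Cd8a* or *Cd8b1*, no *Cd4* or γδ marker, under 2% neutrophil UMIs, and at most 2 UMIs of B or of myeloid markers. CD4 T cells needed *Cd4*, γδ T cells *Cd163l1* or *5830411N06Rik* (the other 4 of 6 γδ markers had no row in the count tables), NK cells 2, B cells 3, microglia 3 and monocytes 4 UMIs of their markers, and neutrophils 5% of UMIs. The limits were set on the markers. No doublet caller was run.

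Counts were summed per class and library as CPM with exact Poisson intervals. Ratios have exact conditional and shares exact Clopper-Pearson intervals (scipy 1.17.1, 95%). Shares and ratios given as thinned use 1000 UMIs per cell. For the CD8 T class, 1 WT and 6 twi cells dropped out of these values. Shares given without a thinned value, such as those of the *Cxcr6* and *Ccr7* cells, count all UMIs and were not compared at equal depth. A gene with at least 20 UMIs over both libraries was read against a fold of 2. List medians used 0.5 added UMIs. On simulated CD8 T sums of 7088 genes, drawn with counting error alone, 96.5% of the intervals of 200 changed genes contained the simulated fold. The draws held no spread between cells or animals, so they check the computation of the intervals only.

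All 9 members were named, with genes of 4 lists past 2-fold in CD8 T cells, the most abundant list genes and the 3 genes most like a member. *Fermt3*, *Rasgrp2*, *Cytip*, *Tln1*, *Icam1*, *Icam2*, *Zfp683* and *Spp1* were named after their values were seen. Members and lists were chosen with earlier results of these data known. 1 gene of the planned subsets and lists is not reported here.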

Additional observations from a re-analysis of the deposited data

Results flagged for a closer look

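*Itga4* was lower in twi than in WT in CD8 T cells (ratio 0.741) and NK cells (0.585) and higher in CD4 T cells (1.67), with intervals that exclude 1 in each class. What singled it out is that the classes moved in opposite directions between the same 2 libraries. The difference between the classes was not tested, since there was 1 library per genotype. Among cells with a Y transcript and no *Xist* the directions were the same, with ratios of 0.761 (interval 0.507 to 1.14), 0.675 (interval 0.316 to 1.38) and 1.95 (interval 0.917 to 4.199), all with intervals that include 1. Thinned to 1000 UMIs per cell, the ratio was 0.889 (interval 0.553 to 1.48) in CD8 T and 0.473 (interval 0.202 to 1.03) in NK cells. In CD4 T cells it was 1.09 (interval 0.501 to 2.46), and each of these thinned intervals includes 1. Without the cell with most *Itga4* in each library, the CD8 T ratio was 0.803 (interval 0.624 to 1.04).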

How the results depend on the processing

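No paired analysis was possible because each genotype had 1 library. Ratios are twi over WT in CD8 T cells unless another class is named. Over 88 ratios recomputed for the 8 integrin genes under 11 alternatives, 78 moved by less than the counting interval of the main value and 9 by more, and 1 with an interval that excluded 1 changed direction. The last was *Itgb1* among cells with a Y transcript and no *Xist*, 0.799, with an interval that includes 1 (0.511 to 1.24). *Itgb1* was 3.33 without the 5% of barcodes with most UMIs. Some alternatives were chosen after seeing the data. With these, *Itgb1* was 3.04 among cells of 2000 to 6000 UMIs, 3.09 without the cell with most UMIs of the gene in each library, and 1.17 when that was done among the Y transcript cells. *Itgal* was 2.82 among the Y transcript cells and 3.06 there without its top cell. *Itgb7*, with an interval that includes 1, went from 1.04 to 0.811 when thinned to 1000 UMIs and to 0.967 over UMIs without mt-, ribosomal and hemoglobin genes. Thinned, *Itgb2* was 2.64. As a mean over cells of each cell's CPM, *Itga4* was 0.958. The cause of these moves was not tested. A value within the main interval can still have its own interval include 1. For *Itga4* this held when thinned (0.889), without the 5% of barcodes with most UMIs (0.895), among cells of 2000 to 6000 UMIs (0.941) and without its top cells (0.803). It also held among the Y transcript cells, with (0.761) and without (0.742) the top cells. In the other classes 54 of 70 values stayed within the interval and 16 did not. With 3 to 11 WT CD8 T UMIs, *Itga1*, *Itgae* and *Itgax* had intervals that include 1, except *Itga1* without its top cells (4.28, interval 1.11 to 36.6). That step removed 1 of 3 WT UMIs from cells tied at 1 UMI each. For these genes the main intervals are wide and large moves stay within them. The *Itga1* ratio of 3.03 (interval 0.965 to 15.3) went to 1.17 when thinned and was counted as unmoved. With a minimum of 50 UMIs, 6.91% of genes were at least 2-fold higher and 1.58% lower in CD8 T cells, and with 1 UMI 27.8% and 11.1%.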

Other observations

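The ligand osteopontin (*Spp1*), bound by *Itga4* with *Itgb1* and by *Itgav* pairs, differed in the myeloid classes. It had 2 UMIs in WT and 72 in twi monocytes (ratio 35.2, interval 9.40 to 296) and 0 in WT and 128 in twi microglia, of which there were 19 WT and 18 twi cells. Of 11 integrin ligands, 4 had 20 UMIs in monocytes and 2 in microglia, and *Spp1* was the 1 at least 2-fold higher in each, where 4.44% and 24.3% of all genes with 20 UMIs were. *P2ry12*, a marker of homeostatic microglia, was seen in 17 of 19 WT and 12 of 18 twi cells of the microglia class. *P2ry12* is itself among the genes whose UMIs set this class, so these shares depend in part on the gate. They are no measure of a change in state.

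*Cxcr6* was also higher in twi in NK cells (3 and 25 UMIs, ratio 8.07, interval 2.46 to 41.8) and CD4 T cells (4 and 29 UMIs, ratio 4.62, interval 1.62 to 18.1).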
